A study of Homo sapiens with 6 samples.

Results

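The receptors of the TGFβ superfamily were examined in HepG2 cells, which derive from a human liver tumor, after a short treatment with TGFβ. The members were the rows of the deposited count table that carry 1 of 10 gene symbols, and all 10 were found among the 57773 genes of the table. They are the type I receptors TGFBR1, ACVR1, ACVR1B and BMPR1A, the type II receptors TGFBR2, ACVR2A, ACVR2B and BMPR2, and the co-receptors TGFBR3 and ENG. RNA was sequenced from 6 cultures, of which 3 received human recombinant TGFB1 ligand at 5 ng/mL and 3 received vehicle, and both groups were collected after 3 h. All cultures were of the same line, with no genetic change named in the labels, grown in MEM with serum and treated in serum-free MEM, and the vehicle was dilute HCl with BSA. The 3 cultures of a group are numbered 1 to 3, and the same numbers occur in both groups. A single tumor line was used, so the values describe these cells and not liver tissue.

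The ligands of this family, which include TGFβ, activins, nodal and BMPs, bind to complexes of type I and type II receptors, both of which are serine/threonine kinases that span the membrane. The type II receptor phosphorylates the type I receptor, and the type I receptor then phosphorylates SMAD proteins, which enter the nucleus and bind DNA. TGFBR2 with TGFBR1 is the classical pair for TGFβ, ACVR2A or ACVR2B with ACVR1B the pair for activins, and BMPR2 with BMPR1A or ACVR1 a pair for BMPs, while co-receptors bind ligand without having a kinase.

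Reads counted on genes lay between 60815385 and 100099136 per culture. All 10 receptors passed the filter on low counts, and the fewest reads of any member in a culture were the 74 of ENG in vehicle culture 3. Levels are given as CPM, the reads of a gene per 1000000 reads on genes, with library totals scaled by the TMM method of edgeR. The effect of TGFβ was tested with the quasi-likelihood method of edgeR over the 22747 genes that passed the filter, and FDR is the p-value after Benjamini-Hochberg adjustment over all of them. A gene was called higher or lower with TGFβ at an FDR under 0.05, which held for 3.11% of the tested genes in the upward and 1.01% in the downward direction. The p-values measure the spread between these cultures, and in bulk RNA fewer cells that express a gene and less of its RNA per cell cannot be told apart. The treatment labels were checked on SMAD7, SKIL and PMEPA1, widely known early TGFβ targets, and all 3 were higher with TGFβ. Of 6 hepatocyte markers 6 were tested and none was called, with summed levels of 23230 to 26980 CPM in vehicle and 22180 to 27080 CPM in TGFβ.

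Within 3 h of TGFβ, the RNA of BMPR2, a type II receptor for BMPs, rose 2.83-fold. That of ACVR1, a type I partner of BMPR2, rose 1.90-fold, while BMPR1A, also a type I partner, was not called (FDR 0.33). The RNA of TGFBR2, the type II receptor that binds TGFβ itself, fell to 0.518 of its vehicle level, whereas that of its partner TGFBR1 rose 1.35-fold. The co-receptor TGFBR3 was lower by 32.6%, close to the threshold. The other 5 receptors were not called, although with the replicate number as a block in the fit ACVR1B was called lower and BMPR1A higher.

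The DNA in front of the called kinase receptors is shown so that the promoters of BMPR2, ACVR1 and TGFBR1, which rose, can be read beside that of TGFBR2, which fell. Each window spans 250 bases before to 50 bases after the start of the representative transcript in GENCODE on GRCh37 (hg19). Of each, 120 bases are printed 5′ to 3′ on the strand of the gene. The printed stretch differs in position between genes, as each was placed to hold at least 1 of the matches marked in capitals. The bases of TGFBR1 from -120 to -1 held no such match. The capitals mark matches on either strand to CAGAC, the short DNA element that SMAD proteins bind, which reads GTCTG on the opposite strand, or to TGANTCA, the element of AP-1 factors. Positions count from the transcript start, with -1 as the base before it.
BMPR2, chr2:203240930-203241049, plus strand, -120 to -1: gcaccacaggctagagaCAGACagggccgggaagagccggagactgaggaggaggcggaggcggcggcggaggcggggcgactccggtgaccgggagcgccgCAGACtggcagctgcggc
ACVR1, chr2:158732843-158732962, minus strand, -120 to -1: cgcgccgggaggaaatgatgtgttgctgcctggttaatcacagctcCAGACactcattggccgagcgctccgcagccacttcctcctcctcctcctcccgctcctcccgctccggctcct
TGFBR1, chr9:101867155-101867274, plus strand, -240 to -121: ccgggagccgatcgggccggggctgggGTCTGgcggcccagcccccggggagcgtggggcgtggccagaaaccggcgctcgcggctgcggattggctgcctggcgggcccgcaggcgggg
TGFBR2, chr3:30647978-30648097, plus strand, -115 to 5: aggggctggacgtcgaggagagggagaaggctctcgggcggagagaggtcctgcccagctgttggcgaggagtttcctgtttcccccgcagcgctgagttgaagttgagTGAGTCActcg

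The BMPR2 window held 4 matches to CAGAC or GTCTG, at -103, -18, 16 and 21, of which the first 2 are in the printed stretch. The windows of ACVR1, TGFBR1 and ACVR2A held 1 each, at -74, -213 and 1, and those of the other 6 members held none. Of 21228 windows of tested genes 43.2% held at least 1 such match, so the element is common at this length. The TGFBR2 window was the only one of the 10 with TGANTCA, which starts at -6 and was found in 5.31% of all windows. It also lacked the GC box GGCGGG, read on both strands, which was in 56.7% of all windows and absent from those of TGFBR2, ACVR2A and ENG among the members. The full palindrome GTCTAGAC was in none of the members and in 0.141% of all windows. None of these motifs lies within another, since GTCTAGAC holds neither CAGAC nor GTCTG. A match is a description of the letters and not a bound site. Each window covers 1 start of its gene, and other starts were not searched. For TGFBR3 the start used lies 20184 bases inside the coordinates given for the gene.

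Levels were compared between receptors per kilobase of the gene length that the table gives. In vehicle, TGFBR2 stood highest at 74.2 ± 6.81 CPM per kb (SD, n = 3), 4.45-fold above TGFBR3 at 16.7 ± 2.71, and 97.4% of the tested genes lay below it on this scale. TGFBR1 followed at 7.69 ± 0.0394, then ACVR1B at 6.85 ± 0.330, ACVR1 at 5.21 ± 0.425, BMPR2 at 4.04 ± 0.227 and BMPR1A at 3.76 ± 0.372. The lowest were ACVR2A at 2.68 ± 0.0776, ACVR2B at 1.73 ± 0.112 and ENG, the endoglin co-receptor best known from endothelial cells, at 0.361 ± 0.0321. Among neighbors in this order, only BMPR2 and BMPR1A overlapped between cultures.

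With TGFβ the middle of the order closed up. TGFBR2 remained on top at 38.4 ± 3.76 CPM per kb, now 3.37-fold above the next, which was BMPR2 at 11.4 ± 1.39. BMPR2, TGFBR3 at 11.2 ± 1.42, TGFBR1 at 10.4 ± 0.354 and ACVR1 at 9.88 ± 0.892 followed each other with overlapping cultures. ACVR1B at 5.66 ± 0.0176, BMPR1A at 4.43 ± 0.453, ACVR2A at 3.13 ± 0.148, ACVR2B at 1.53 ± 0.160 and ENG at 0.450 ± 0.0415 each lay below the one before without overlap. The plot of levels per length follows each receptor from its vehicle to its TGFβ level. The order depends on the length used, most of all for ACVR1, whose length is 3988 bases in the table and 9842 bases as the union of its exons in the GENCODE annotation.

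**Figure D1:**
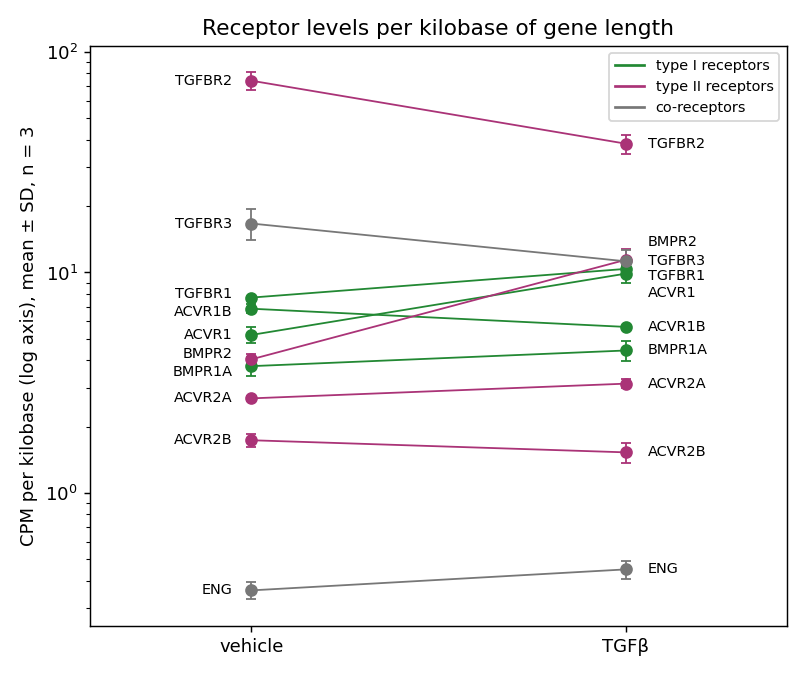
Mean level of each receptor in vehicle and TGFβ cultures in CPM per kb of gene length on a log axis, with 1 line per receptor and bars for the SD of 3 cultures. TGFBR2 falls from 74.2 to 38.4 and BMPR2 climbs from 4.04 to 11.4, where it meets TGFBR3, TGFBR1 and ACVR1.

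TGFBR2, on chromosome 3 at chr3:30647994-30735634 of the plus strand (ENSG00000163513), had the most reads of the 10, between 11788 and 32914 per culture. Its level was 373, 361 and 313 CPM in vehicle cultures 1, 2 and 3, and 184, 197 and 162 CPM in TGFβ cultures 1, 2 and 3. Every TGFβ culture lay far below every vehicle culture, and culture 3 was the lowest of both groups. The change was -0.95 on the log2 scale (SE 0.097, FDR 0.000543), and within numbers it was -1.02, -0.88 and -0.95.

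TGFBR1, the type I receptor that TGFBR2 activates, lies at chr9:101866320-101916474 on the plus strand (ENSG00000106799). It had 52.9, 52.4 and 52.6 CPM in vehicle and 72.6, 72.2 and 68.2 CPM in TGFβ. The vehicle cultures were nearly alike and all TGFβ cultures stood above them. The rise was 0.43 on the log2 scale (SE 0.067, FDR 0.00553), and within numbers the log2 difference was 0.46, 0.46 and 0.37.

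TGFBR3, or betaglycan, presents TGFβ to TGFBR2 and also binds inhibins. It lies at chr1:92145902-92371892 on the minus strand (ENSG00000069702) and had 117, 160 and 155 CPM in vehicle and 84.6, 109 and 98.2 CPM in TGFβ. The groups did not overlap, although vehicle culture 1 lay nearer to the TGFβ cultures than to the other vehicle cultures. The log2 difference was -0.57 (SE 0.13, FDR 0.0392). Culture 1 was the lowest of both groups, and within numbers the log2 difference was -0.47, -0.56 and -0.66. With the replicate number as a block the SE was 0.053 and the FDR 3.24e-05. The call was lost with limma-voom (FDR 0.0511) and when vehicle culture 2 or 3 (FDR 0.172 and 0.184) or TGFβ culture 1, 2 or 3 (FDR 0.113, 0.0514 and 0.0749) was left out, while without vehicle culture 1 the FDR was 0.0119.

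**Figure D2:**
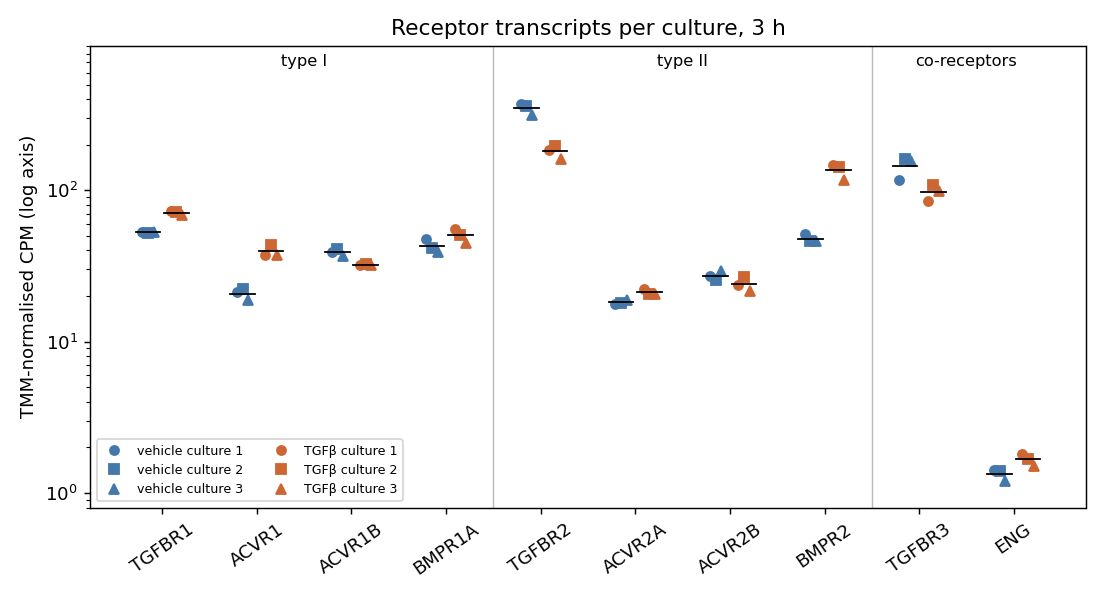
CPM of each receptor on a log axis in the 3 vehicle (blue) and 3 TGFβ (orange) cultures, ordered by role, with a point for each culture and a line at the mean of each group. The vehicle and TGFβ points lie farthest apart for BMPR2, at 46.4 to 51.1 and 117 to 147 CPM, and they overlap for BMPR1A and ACVR2B.

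BMPR2, at chr2:203241659-203432474 on the plus strand (ENSG00000204217), had 51.1, 46.5 and 46.4 CPM in vehicle and 147, 144 and 117 CPM in TGFβ. Each TGFβ culture held more than any vehicle culture, culture 3 being the lowest. The rise of 1.50 on the log2 scale (SE 0.099, FDR 4.41e-05) was the largest change of any member, and within numbers it was 1.52, 1.63 and 1.33.

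ACVR1, also called ALK2, is a type I receptor for BMPs and can also pair with activin type II receptors. It lies at chr2:158592958-158732374 on the minus strand (ENSG00000115170) and had 21.3, 22.1 and 18.9 CPM in vehicle and 37.5, 43.5 and 37.2 CPM in TGFβ. The groups stood well apart, with culture 2 the highest of both. The log2 rise was 0.92 (SE 0.096, FDR 0.000582), and within numbers 0.81, 0.98 and 0.98.

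BMPR1A, also called ALK3, is a type I receptor for BMPs and lies at chr10:88516407-88692595 on the plus strand (ENSG00000107779). Its level was 47.3, 41.7 and 39.0 CPM in vehicle and 55.2, 50.6 and 45.0 CPM in TGFβ. The groups overlapped, since vehicle culture 1 held more than TGFβ culture 3, but in both groups the level ran in the same order of numbers. The log2 difference was 0.24 (SE 0.10, FDR 0.33), and within numbers it was 0.22, 0.28 and 0.20. With the replicate number as a block the SE was 0.053 and BMPR1A was called higher, with an FDR of 0.0128.

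ACVR1B, also called ALK4, is the type I receptor for activins and nodal and lies at chr12:52345451-52390862 on the plus strand (ENSG00000135503). It had 39.3, 40.6 and 36.95 CPM in vehicle and 32.2, 32.3 and 32.2 CPM in TGFβ. All TGFβ cultures were below all vehicle cultures by a small step. The log2 difference was -0.27 (SE 0.072, FDR 0.0735) and missed the threshold. ACVR1B was called lower with the replicate block (FDR 0.00807), with scaling by total counts (FDR 0.0442) and with DESeq2 (FDR 0.0295).

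Neither activin type II receptor was called. ACVR2A, at chr2:148602086-148688393 on the plus strand (ENSG00000121989), had 17.7, 18.0 and 18.7 CPM in vehicle and 22.3, 20.7 and 20.5 CPM in TGFβ. ACVR2B, at chr3:38495342-38534633 on the plus strand (ENSG00000114739), had 27.2, 25.6 and 29.1 CPM in vehicle and 23.7, 26.7 and 21.7 CPM in TGFβ. The ACVR2A groups did not overlap, whereas those of ACVR2B did and its difference had no common sign among the 3 numbers. The log2 difference of ACVR2A was 0.22 (SE 0.082, FDR 0.229), and that of ACVR2B -0.18 (SE 0.097, FDR 0.491). ORC4, a subunit of the origin recognition complex that overlaps the end of ACVR2A on the map, had 25838 reads in all, or 271% of the reads of ACVR2A, and a log2 difference of 0.00 (FDR 0.999). ACVR2B-AS1, an antisense RNA that overlaps the start of ACVR2B, had 1026 reads, 8.32% of those of ACVR2B. AC009480.3 within ACVR2A had 459 reads, 4.81% of those of ACVR2A. Other genes that overlap a member by position had few reads in all, AC073410.1 31, RP11-420K10.1 25, AC096921.2 22, RNU6-574P 11, RP11-27M5.1 10, AC013731.1 3 and RNA5SP290 2, and RNU1-19P, RNU6-1275P, RN7SL653P, RNA5SP296 and the Y_RNA copies had 0. Whether the counting used strand is not given in the sources used here, so how such reads were shared is uncertain.

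ENG, at chr9:130577291-130617035 on the minus strand (ENSG00000106991), had only 74 to 176 reads per culture. These made 1.42, 1.40 and 1.20 CPM in vehicle and 1.82, 1.68 and 1.51 CPM in TGFβ. All TGFβ cultures stood above all vehicle cultures, yet the log2 difference of 0.31 (SE 0.18, FDR 0.544) was not called. RP11-228B15.4, which overlaps ENG on the map, had 179 reads in all, 24.3% of those of ENG. Of 6 endothelial markers 5 were in the table and 1 was tested, with a sum of 1.28 to 2.47 CPM in vehicle and 1.17 to 2.59 CPM in TGFβ, and KDR had 0 reads in every culture. Of 6 fibroblast or stellate cell markers 3 were tested and none was called by edgeR. At an unadjusted p under 0.05 in edgeR 2 were higher, beside 8.69% of all tested genes. The sum of the 6 was 52.5 to 57.3 CPM in vehicle and 62.7 to 71.3 CPM in TGFβ. These ranges did not overlap, which held in the upward direction for 10.4% of all tested genes taken singly. PDGFRB had 5.01, 9.22 and 6.09 CPM in vehicle and 11.0, 24.0 and 12.5 CPM in TGFβ (log2 difference 1.22, FDR 0.0582). COL1A1 had a log2 difference of 0.57 (FDR 0.193). ACTA2, the other tested marker and most of the sum, had 42.3, 37.9 and 38.8 CPM in vehicle. With TGFβ it had 41.5, 36.7 and 39.4 CPM (log2 difference -0.02, FDR 0.958). DCN had 29, COL3A1 28 and LUM 2 reads in all. Of 4 leukocyte markers 3 were tested and none was called. At an unadjusted p under 0.05 in edgeR 1 was lower, beside 4.97% of all tested genes. The sum of the 4 was 1136 to 1459 CPM in vehicle and 987 to 1086 CPM in TGFβ. It was nearly all LYZ, and PTPRC had 1 read in all. The part of these markers in the receptor values was not tested.

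**Figure D3:**
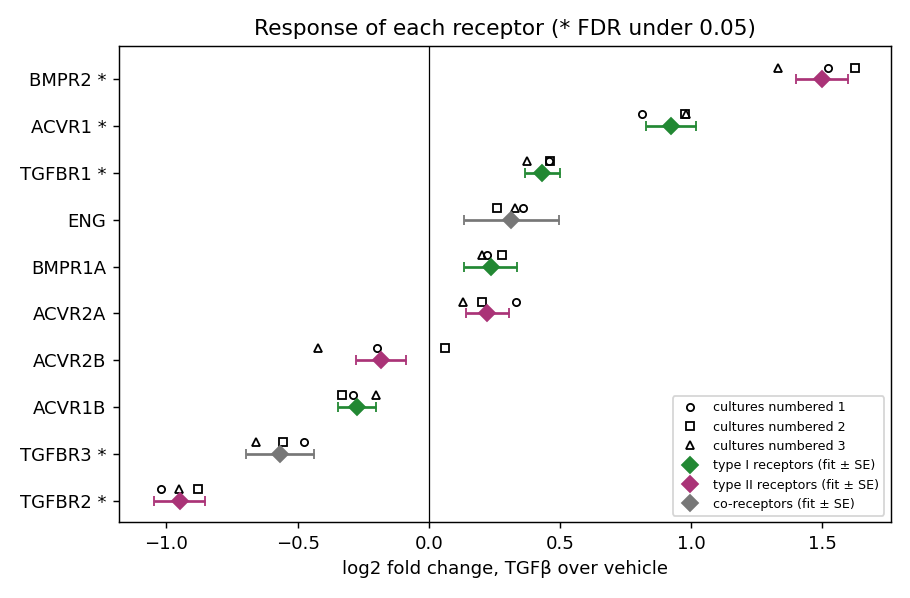
Log2 fold change of TGFβ over vehicle for each receptor, colored by role, with the fitted value and its SE (diamond and bar), the 3 differences within numbers (open symbols) and an asterisk at an FDR under 0.05. BMPR2 at 1.50 and TGFBR2 at -0.95 lie at the 2 ends, both of them type II receptors.

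By role, 2 of 4 type I receptors were called higher (TGFBR1 and ACVR1) and 0 lower, with a median log2 difference of 0.33. Of the 4 type II receptors 1 was called higher and 1 lower, with a median of 0.02 and the widest range, from -0.95 to 1.50. Of the 2 co-receptors 1 was called lower and 0 higher. At an unadjusted p-value under 0.05 of the same edgeR test, which 8.69% of all tested genes passed upward and 4.97% downward, ACVR1B (0.00368) would count as lower and BMPR1A (0.0413) and ACVR2A (0.0218) as higher, and ENG (0.115) would not. In all, 3 of 10 members were higher and 2 of 10 lower, where 3.11% and 1.01% of all tested genes were called. The medians were 0.23 for the members and -0.01 for all tested genes. As the members were chosen with earlier results of these data known, these comparisons are description only. Cultures of the groups did not overlap for 8 members, 5 higher and 3 lower, where this held for 10.4% and 8.23% of all tested genes. An exact permutation test of 3 cultures against 3 cannot give a p below 0.1, which is what each of the 8 had, while BMPR1A and ACVR2B had 0.2. With the replicate number as a block 4 members were higher and 3 lower, beside 8.08% and 3.75% of all tested genes. The plot of log2 fold changes shows the roles side by side.

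The make-up of the receptor RNA shifted most among the type II receptors. Summed per length, the 4 type II receptors held 87.9, 85.0 and 75.0 CPM per kb in vehicle and 56.2, 58.6 and 48.6 in TGFβ, a ratio of 0.659. TGFBR2 made up 89.7% ± 0.944 of this sum in vehicle and 70.5% ± 0.936 in TGFβ (SD, n = 3), and BMPR2 4.90% ± 0.303 and 20.9% ± 0.937. Neither share overlapped between the groups. The 4 type I receptors held 24.2, 24.0 and 22.4 CPM per kb in vehicle and 30.5, 31.6 and 28.9 in TGFβ, a ratio of 1.29. The sums of both roles thus moved in opposite directions, but the type II sum mainly followed TGFBR2, which went from 74.2 to 38.4 CPM per kb. Of the other type II receptors, BMPR2 went from 4.04 to 11.4, ACVR2A from 2.68 to 3.13 and ACVR2B from 1.73 to 1.53. Among type I receptors, ACVR1 went from 22.1% ± 0.959 to 32.5% ± 1.87 and ACVR1B from 29.1% ± 0.581 to 18.7% ± 0.803. The shares of TGFBR1, 32.8% ± 1.44 in vehicle and 34.2% ± 0.727 in TGFβ, and of BMPR1A, 16.0% ± 1.10 and 14.6% ± 1.19, overlapped between the groups. These shares carry no test and rest on the gene lengths of the table. With the exon union of the annotation as length, the share of ACVR1 was 10.6% ± 0.511 in vehicle and 17.0% ± 1.22 in TGFβ, that of TGFBR2 85.8% ± 1.26 and 62.7% ± 1.05, and the sums of type I and type II receptors had ratios of 1.19 and 0.709.

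The responses of the members of a pair were compared on the log2 ratio of their CPM within each culture. These ratios use the counts already given for the single receptors, so they are no separate support for those changes. Where 1 receptor stood higher and the other lower without overlap of cultures, the groups of the ratio cannot overlap either. This was so for TGFBR1 with TGFBR2, ACVR1B with ACVR2A, and TGFBR1 with ACVR1B. TGFBR1 over TGFBR2 was -2.82, -2.79 and -2.57 in vehicle and -1.34, -1.45 and -1.25 in TGFβ, so the ratio was higher in every TGFβ culture. The difference was 1.38 with a 95% interval from 1.11 to 1.65, which makes a 2.61-fold shift toward TGFBR1. Per length, TGFBR1 stood at 0.104 ± 0.0100 of TGFBR2 in vehicle and at 0.271 ± 0.0188 in TGFβ.

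BMPR1A over BMPR2 moved the opposite way, from -0.11, -0.16 and -0.25 in vehicle to -1.41, -1.50 and -1.38 in TGFβ. The log2 difference was -1.26 (95% interval -1.41 to -1.10). Per length the ratio of both was 0.930 ± 0.0449 in vehicle and 0.389 ± 0.0175 in TGFβ. In the pair of BMPR1A and BMPR2 the ratio thus moved toward the type II receptor, and in the TGFβ pair toward the type I receptor. BMPR1A itself had a log2 difference of 0.24, beside 1.50 for BMPR2. In the TGFβ pair the fall of TGFBR2 (-0.95) was larger than the rise of TGFBR1 (0.43). A ratio with ACVR1 as the BMP type I receptor was not computed.

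ACVR1B over ACVR2A, an activin pair, was 1.15, 1.17 and 0.98 in vehicle and 0.53, 0.64 and 0.65 in TGFβ, a log2 difference of -0.49 (95% interval -0.70 to -0.29). With ACVR2B as the type II receptor, a ratio added after the values were seen, ACVR1B stood at 0.53, 0.67 and 0.34 in vehicle and at 0.44, 0.28 and 0.57 in TGFβ. These groups overlapped, and the difference of -0.09 (95% interval -0.44 to 0.26, exact two-sided permutation p 0.5) was not larger than the spread. Between the type I receptors TGFBR1 and ACVR1B, which act on the same SMADs, the ratio was 0.43, 0.37 and 0.51 in vehicle and 1.18, 1.16 and 1.09 in TGFβ, a difference of 0.70 (95% interval 0.56 to 0.85). For TGFBR1 over TGFBR2, BMPR1A over BMPR2, ACVR1B over ACVR2A and TGFBR1 over ACVR1B the groups did not overlap and no interval held 0. The exact two-sided permutation p was 0.1 for each of them, the smallest that 3 against 3 cultures allow, and 0.1 after Benjamini-Hochberg adjustment over the 4. Except for BMPR1A over BMPR2, the lack of overlap and this p were fixed by the values of the single receptors. The plot of ratios within cultures shows these gaps beside the SD.

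**Figure D4:**
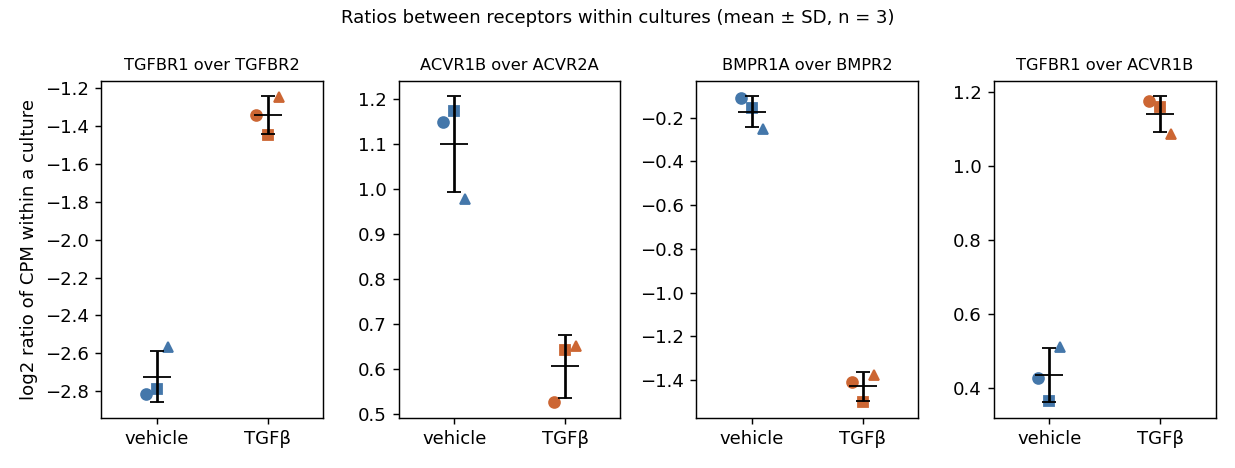
Log2 ratio of CPM between 2 receptors within each culture, 1 panel per ratio with its own axis range, points for the 3 cultures of each group (circle, square and triangle for numbers 1, 2 and 3) and bars for mean ± SD. The groups are apart in all 4 panels, by 1.38 for TGFBR1 over TGFBR2 and by -1.26 for BMPR1A over BMPR2.

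Among 13 other symbols of receptors and co-receptors of the superfamily, which stand for 12 genes in the table, 7 were tested, 1 was higher and 1 lower. Over all tested genes 3.11% were called higher and 1.01% lower. At an unadjusted p under 0.05 in edgeR it was also 1 and 1 of these receptors, beside 8.69% and 4.97% of all tested genes. BAMBI, a pseudoreceptor that lacks the kinase and dampens the pathway, had 21.0, 19.6 and 17.6 CPM in vehicle and 39.9, 27.6 and 32.2 CPM in TGFβ, a log2 rise of 0.78 (SE 0.13, FDR 0.00917). RGMB, a BMP co-receptor, had 23.4, 22.2 and 24.5 CPM in vehicle and 14.9, 13.7 and 12.6 CPM in TGFβ, lower by a log2 difference of -0.77 (SE 0.093, FDR 0.00146). Both were apart between the groups. NEO1, a receptor for RGM proteins, held 38.2 ± 2.68 CPM in vehicle and 38.9 ± 1.10 CPM in TGFβ (SD, n = 3). The rest had little RNA: TDGF1 774, TGFBR3L 480, ACVR1C 265, AMHR2 167, HFE2 34, ACVRL1 8, RGMA 6, BMPR1B 3 and CFC1 0 reads over the 6 cultures.

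The genes around the receptors are given as counts. Of 26 ligands and ligand antagonists 17 were tested, and 6 were higher and 0 lower with TGFβ, where 3.11% and 1.01% of all tested genes were called. At an unadjusted p under 0.05 in edgeR it was 9 and 2, beside 8.69% and 4.97% of all tested genes. The median log2 difference of the ligands was 0.65. Among the 6 called, the 5 with the largest rises were NODAL (3.62, FDR 0.000424), a ligand of the activin receptors, BMP6 (1.82, FDR 0.0196), LEFTY1 (1.57, FDR 0.0153), which antagonizes nodal, and the activin subunits INHBE (1.49, FDR 0.000639) and INHBC (1.12, FDR 0.00287). NODAL, LEFTY1 and BMP6 were at most at 3.39 CPM in every culture.

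All 8 SMAD genes were tested, and 4 were higher and 0 lower, where 3.11% and 1.01% of all tested genes were called. At an unadjusted p under 0.05 in edgeR it was 6 and 0, beside 8.69% and 4.97% of all tested genes. The median of the SMAD genes was 0.53. SMAD7 (1.72, FDR 3.73e-05) and SMAD6 (1.12, FDR 0.0075) encode the inhibitory SMADs. SMAD3 (0.90, FDR 0.000888) encodes a substrate of TGFBR1 and ACVR1B, and SMAD9 (0.72, FDR 0.01) a substrate of BMP type I receptors. Of 30 genes for proteins that bind, recycle or ubiquitinate the receptors 29 were tested, 3 were higher and 2 lower, with a median of 0.06. Over all tested genes 3.11% were called higher and 1.01% lower. At an unadjusted p under 0.05 in edgeR 5 of these genes were higher and 2 lower, beside 8.69% and 4.97% of all tested genes. PMEPA1 (4.31, FDR 4.41e-05), an adaptor that limits SMAD activation, and the ubiquitin ligases SMURF2 (0.64, FDR 0.00237) and SMURF1 (0.53, FDR 0.00734) were higher, and the endocytic adaptor DAB2 (-0.50, FDR 0.00852) and the ubiquitin ligase NEDD4L (-0.38, FDR 0.0152) were lower. The plot of pathway lists sets these beside the receptors.

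**Figure D5:**
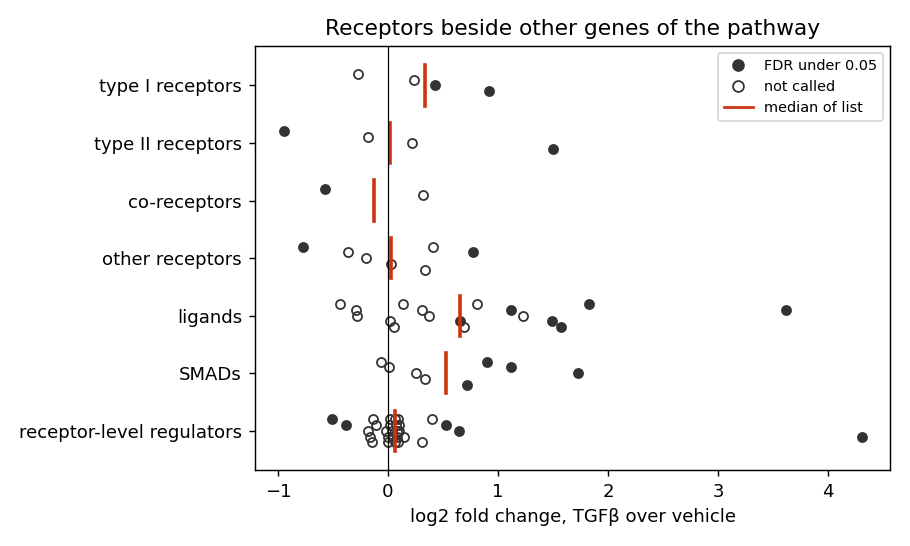
Log2 fold change of TGFβ over vehicle for the tested genes of each list, filled points at an FDR under 0.05 and a vertical bar at the median of the list. The ligands and SMADs have no filled point below 0, while the type II receptors have 1 on each side, at -0.95 and 1.50.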

How the data were processed

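RNA from HepG2 cells treated with vehicle or TGFβ was taken from the sample labels as 3 cultures per group. The authors prepared mRNA libraries, aligned paired 51-base reads to hg19 with TopHat2 2.0.6 and counted them per gene with HTSeq within MAPRseq, per the study's methods and the submitters' processing notes. The deposited table holds raw counts and, beside them, RPKM values. The RPKM deposited by the authors are scaled by gene length and by library totals between 1.19 and 1.28 times the reads on genes, and were used only as an alternative for levels. How overlapping genes and strand were treated, and which annotation release was used, is not given in the sources used here.

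Counts were analysed in R 4.3.3 with edgeR 4.0.16. Libraries were scaled by TMM, filterByExpr kept 22747 genes, and the quasi-likelihood test was fitted robustly with no replicate term, followed by Benjamini-Hochberg adjustment. The SE is that implied by the F statistic. Alternatives were scaling by total counts or by DESeq2 size factors, a minimum of 10 counts per gene in each library or none, DESeq2 1.42.0, limma-voom (limma 3.58.1), the replicate block, leaving out each culture, and a ratio of mean raw counts. The steps were tested on simulated data. The 95% intervals of ratios use the pooled spread of both groups. Levels per length are TMM-scaled CPM per kb of the length column of the table. Promoter windows were read from GRCh37 with pysam 0.24.0.

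The chi-square statistic per gene between cultures of 1 group was 21.0 to 46.2, above counting noise, and each culture was used as a sample. The deviations from the group mean of cultures that share a number correlated across genes at 0.366, 0.227 and 0.316 for numbers 1, 2 and 3, and cultures of different numbers at most at 0.0101, so the numbers pair the cultures. The tests were fitted without the pairing, as the study's methods name no block, and values with the replicate block are printed where they change a call. The intervals and permutation tests of the ratios also leave the pairing out. According to the labels, pairs 1 and 2 shared a sequencing lane and pair 3 did not. The members and gene lists were chosen with earlier results of these data known. All members are named with values, and of the other lists the called genes, at most 5 per list by size of change, with all other receptors and the genes that overlap a member by position. One gene that was examined is not reported here.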

Additional observations from a re-analysis of the deposited data

How the results depend on the processing

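The calls of TGFBR1, ACVR1, TGFBR2 and BMPR2 kept their direction and an FDR under 0.05 in every fit run, including those that left out a culture, where the highest FDR was 0.039 for TGFBR1, 0.00506 for ACVR1, 0.00378 for TGFBR2 and 0.000911 for BMPR2. No receptor changed direction. The count of members called lower was 2, and it was 1 with limma-voom and between 1 and 2 when a culture was left out, with TGFBR3 as the call lost, and 3 with total-count scaling, DESeq2 or the replicate block, with ACVR1B as the call gained. The count of members called higher was 3, and 4 with the replicate block. The number of genes called over the whole table was 937, and it was 1415 with DESeq2, 2690 with the replicate block, and between 485 and 998 when a culture was left out (485 without vehicle culture 3, 518 without vehicle culture 2 and 561 without TGFβ culture 2). The replicate block called ACVR1B and BMPR1A in addition and changed no other call of a member. The 4 ratios between receptors kept their sign when each culture was left out, when paired within numbers and on raw counts with a pseudocount of 1, the alternatives run for them.

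A ratio of mean raw counts moved 6 members by more than their SE, to 0.54 for TGFBR1, -0.18 for ACVR1B, 0.34 for BMPR1A, 0.34 for ACVR2A, -0.07 for ACVR2B and 1.61 for BMPR2 on the log2 scale, since it carries the library sizes. With the exon union of the annotation as the length, 5 members had another rank in vehicle, ACVR1 moving from rank 5 to 8, and with the deposited RPKM 0 members did. ENG had the fewest reads of the members, 74 to 176 per culture, and the largest SE.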
